A study of Homo sapiens with 6 samples.

Results

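The BCL2 family was described here through 10 genes chosen by symbol: the anti-apoptotic genes BCL2, BCL2L1 and MCL1, the effectors BAX and BAK1, and the BH3-only genes BBC3, PMAIP1, BCL2L11, BIK and BMF. Each symbol matched 1 row of the 61806 genes listed, and 9 of the 10 held enough counts to be among the 16082 genes tested; BIK did not. RNA came from A549 cells, a human lung adenocarcinoma line labelled wild type, with 3 libraries after the solvent DMSO and 3 after Japoflavone B. Cells of both groups had been seeded for 24 h and were then treated for 24 h, with Japoflavone B at a dose of 40 whose unit the labels do not state. The series title calls Japoflavone B a PARP1 inhibitor that triggers cell death in lung cancer cells, and the comparison here is of the mRNA of the death-deciding family with and without the compound. Whether the 3 libraries of a group are separate cultures is not stated in the labels, and p-values therefore cover a spread that may be technical.

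Proteins of the BCL2 family decide whether the outer mitochondrial membrane is breached in apoptosis. BAX and BAK, the effectors, form the openings through which cytochrome c leaves, and the anti-apoptotic proteins BCL2, BCL-XL (from BCL2L1) and MCL1 hold them in check. BH3-only proteins such as PUMA (from BBC3), NOXA (from PMAIP1) and BIM (from BCL2L11) carry only the short BH3 helix, with which they occupy the groove of the anti-apoptotic proteins or activate the effectors directly. The balance is set largely between proteins, several of which, MCL1 above all, are short-lived, so mRNA levels describe 1 layer of it.

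After Japoflavone B, mRNA rose on both sides of the family. MCL1, BCL2L1, BAX, BAK1, BBC3 and PMAIP1 were higher, BMF and BCL2 were lower, BCL2L11 did not pass the test, and BIK was too sparse to test. These are 6 higher and 2 lower of 9 tested members (edgeR quasi-likelihood test, adjusted p at most 0.05 over all genes), where 34.7% of all genes tested were higher and 35.4% lower, together 70.0%. Of the genes called, 49.5% were higher; with limma on log2(TPM + 1), which moves the median of all genes by -0.21 log2, 35.0% were, and 6 members were again higher and 3 lower, beside 24.0% and 44.6% of genes tested. Being called was therefore common in these libraries, and the sizes say more: 4 members rose by at least 2-fold, as did 9.67% of genes tested, and 1 fell by at least 2-fold, as did 15.0%. In FPKM (counts scaled by exonic length and library total) the groups did not overlap for any of the 10 members, 7 being higher and 3 lower, beside 30.9% and 40.7% of genes tested. In cultures measured in bulk, fewer cells carrying an mRNA and less of it per cell cannot be told apart.

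**Figure D1:**
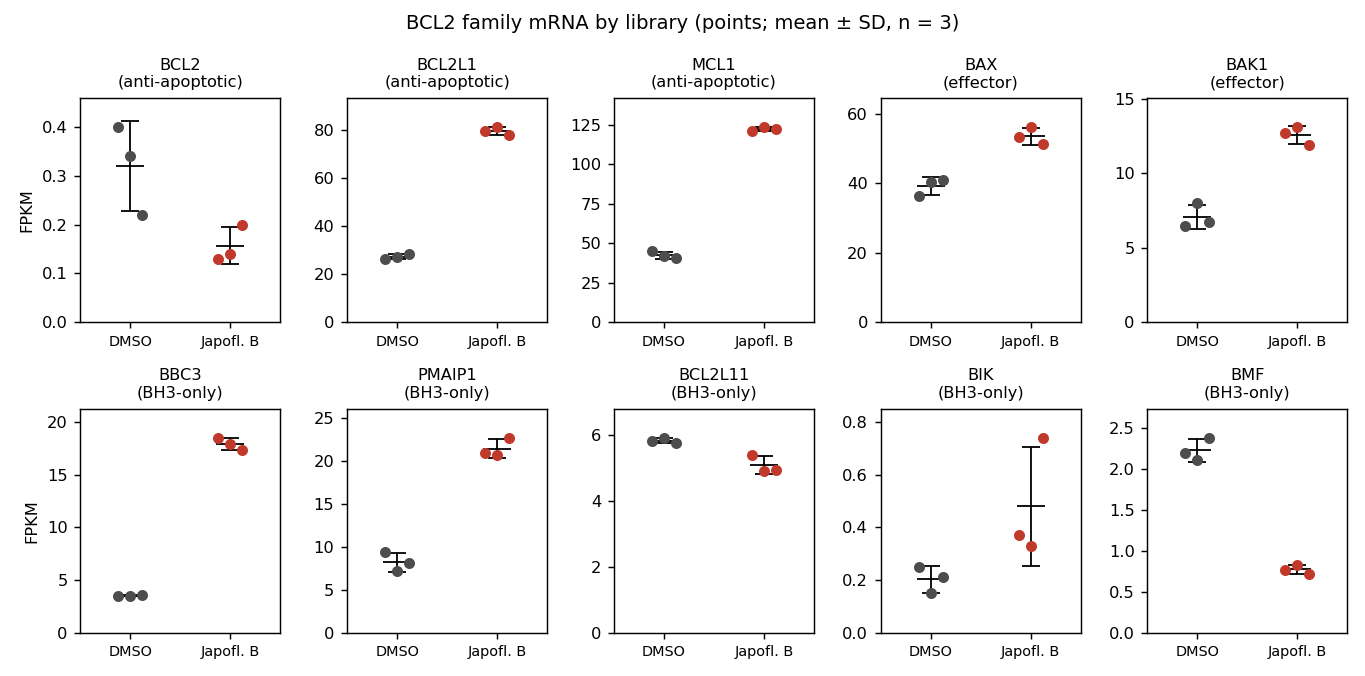
FPKM of each of the 10 members in each library (points), with mean ± SD over n = 3, on linear axes that start at 0 and differ between panels. BBC3 goes from 3.48 to 3.59 FPKM after DMSO to 17.4 to 18.5 after Japoflavone B, whereas BMF goes from 2.11 to 2.38 down to 0.72 to 0.83.

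Upstream sequence is shown so that the called members that rose, apart from MCL1, can be set beside BMF, which fell. RefSeq start-site windows on GRCh38.p14, 250 bases before to 50 after the start, were on hand for 8 of the 10 members. MCL1 and BIK had no window, so nothing said of motifs covers them. Only bases outside the exons and outside the deposited gene coordinates are printed, 5′ to 3′ on the strand of the gene. The window of BCL2, the other called member that fell, had no such bases. Capitals mark matches, on either strand, to TGANTCA (the AP-1 site), TGACGTCA (the cyclic AMP response element), TGATGNAA (an ATF4 element), CACGTG (the E-box), GTAAACA (a FOXO site), GGGCGG (the GC box) and CCAAT.
BBC3, chr19:47232767-47232917, minus strand: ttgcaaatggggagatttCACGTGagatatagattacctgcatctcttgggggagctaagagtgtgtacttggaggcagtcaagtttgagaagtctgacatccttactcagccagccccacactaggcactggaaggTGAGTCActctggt
PMAIP1, chr18:59899746-59899947, plus strand: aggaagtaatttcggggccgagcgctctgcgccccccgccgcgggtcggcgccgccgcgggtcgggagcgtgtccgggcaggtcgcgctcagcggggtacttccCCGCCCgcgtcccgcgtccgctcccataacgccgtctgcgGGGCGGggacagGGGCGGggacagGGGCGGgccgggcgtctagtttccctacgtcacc
BCL2L1, chr20:31723990-31724213, minus strand: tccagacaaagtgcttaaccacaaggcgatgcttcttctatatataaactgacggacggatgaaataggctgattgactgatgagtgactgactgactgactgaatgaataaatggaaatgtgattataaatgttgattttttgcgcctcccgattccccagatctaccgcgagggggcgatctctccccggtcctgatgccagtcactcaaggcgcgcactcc
BAX, chr19:48954625-48954814, plus strand: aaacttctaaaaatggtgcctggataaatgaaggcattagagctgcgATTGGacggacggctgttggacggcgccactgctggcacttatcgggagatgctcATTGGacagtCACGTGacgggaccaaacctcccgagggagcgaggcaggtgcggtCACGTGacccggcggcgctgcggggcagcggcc
BAK1, chr6:33580294-33580526, minus strand: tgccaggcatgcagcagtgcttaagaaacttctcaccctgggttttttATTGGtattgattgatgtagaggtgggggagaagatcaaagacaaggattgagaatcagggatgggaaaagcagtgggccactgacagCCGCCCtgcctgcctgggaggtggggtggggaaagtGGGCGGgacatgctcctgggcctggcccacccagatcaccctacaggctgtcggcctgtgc
BMF, chr15:40108893-40109129, minus strand: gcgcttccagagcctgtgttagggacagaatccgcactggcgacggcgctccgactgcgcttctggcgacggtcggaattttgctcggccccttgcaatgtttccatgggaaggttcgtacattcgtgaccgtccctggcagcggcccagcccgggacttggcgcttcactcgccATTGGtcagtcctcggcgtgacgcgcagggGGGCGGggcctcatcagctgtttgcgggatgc

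Among the patterns searched, the windows had little in common beyond the GC box and CCAAT, and other motifs were not searched. The GC box was found in the windows of 6 of the 8 members and in 45.0% of all 35116 windows of the same length, and CCAAT in 5 members and 34.6% of windows. The 8 members have 10 windows, so counts of members and shares of windows are not the same measure. GC box matches of BCL2L1, BAX and BCL2L11 lie outside the printed bases, that of BCL2L1 in another window of the gene. The CCAAT matches of BBC3 and BCL2L11 also lie outside the printed bases. The AP-1 site was found in BBC3 alone (TGAGTCA, 113 to 107 bases before the start; 7.71% of all windows), and the E-box in BAX, with 4 matches of which 2 are printed, and BBC3 (7.26%). The FOXO site was found in BCL2L11 alone (3.42%), whose window lies inside the deposited gene and is not printed. Neither the cyclic AMP response element (1.85%) nor the ATF4 element (3.62%) was found in the windows of these 8 members. A match describes letters, not a bound site, and these windows leave out introns, where regulatory sites of several family genes are known to lie.

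Among the anti-apoptotic genes, MCL1 and BCL2L1 rose by nearly the same factor and BCL2 fell. MCL1 (ENSG00000143384, chromosome 1, 150560895 to 150579738, minus strand, GRCh38) had 44.9, 41.8 and 40.7 FPKM in DMSO replicates 1 to 3 and 121, 124 and 123 FPKM in Japoflavone B replicates 1 to 3. All treated libraries stood far above all DMSO libraries, with a coefficient of variation of 0.906% among treated libraries and 5.22% among DMSO libraries. The fold change was 3.1 (log2 1.63 ± 0.05, SE; edgeR adjusted p = 6.88e-21), higher than that of 96.1% of genes tested. BCL2L1 (ENSG00000171552, chromosome 20, 31664452 to 31723989, minus strand), the gene of BCL-XL, had 26.27, 26.98 and 28.45 FPKM after DMSO and 79.5, 81.2 and 78.2 after Japoflavone B. Its fold change was 3.14 (log2 1.65 ± 0.05; edgeR adjusted p = 1.43e-20), and its 95% interval of 1.55 to 1.76 log2 overlapped that of MCL1, 1.53 to 1.73. The FPKM ratio of MCL1 to BCL2L1 was 1.56 ± 0.141 after DMSO and 1.54 ± 0.0251 in treated cells (SD, n = 3), and the groups overlapped.

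BCL2 (ENSG00000171791, chromosome 18, 63123346 to 63320128, minus strand), the founding member of the family, was near the bottom of the detectable range. It had 0.40, 0.34 and 0.22 FPKM after DMSO, from 105, 94 and 43 counts, and 0.13, 0.14 and 0.20 FPKM after Japoflavone B, from 33, 28 and 47 counts. The groups were separated only by the gap between DMSO replicate 3 and Japoflavone B replicate 3. The fold change was 1.91-fold lower (log2 -0.94 ± 0.25; edgeR adjusted p = 0.0017), the least precise of the called members. BCL2 made up 0.456% ± 0.125 of the summed FPKM of the 3 anti-apoptotic genes after DMSO and 0.0775% ± 0.0192 in treated cells, while MCL1 held 60.6% in both groups.

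Both effector genes rose, by less than 2-fold. BAX (ENSG00000087088, chromosome 19, 48954815 to 48961798, plus strand), whose product moves from the cytosol to mitochondria when activated, had 36.4, 40.4 and 41.0 FPKM after DMSO and 53.3, 56.2 and 51.3 after Japoflavone B. It was 1.47-fold higher (log2 0.55 ± 0.06; edgeR adjusted p = 3.33e-09). BAK1 (ENSG00000030110, chromosome 6, 33572547 to 33580293, minus strand), whose product sits in the outer mitochondrial membrane, had 6.47, 7.98 and 6.74 FPKM after DMSO and 12.7, 13.1 and 11.9 after Japoflavone B. It was 1.9-fold higher (log2 0.93 ± 0.10; edgeR adjusted p = 1.78e-09). The 95% interval of BAK1, 0.74 to 1.12 log2, lay above that of BAX, 0.44 to 0.67, and the BAX to BAK1 ratio of FPKM, which was not tested, was 5.62, 5.06 and 6.08 after DMSO and 4.21, 4.29 and 4.30 in treated cells, without overlap.

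**Figure D2:**
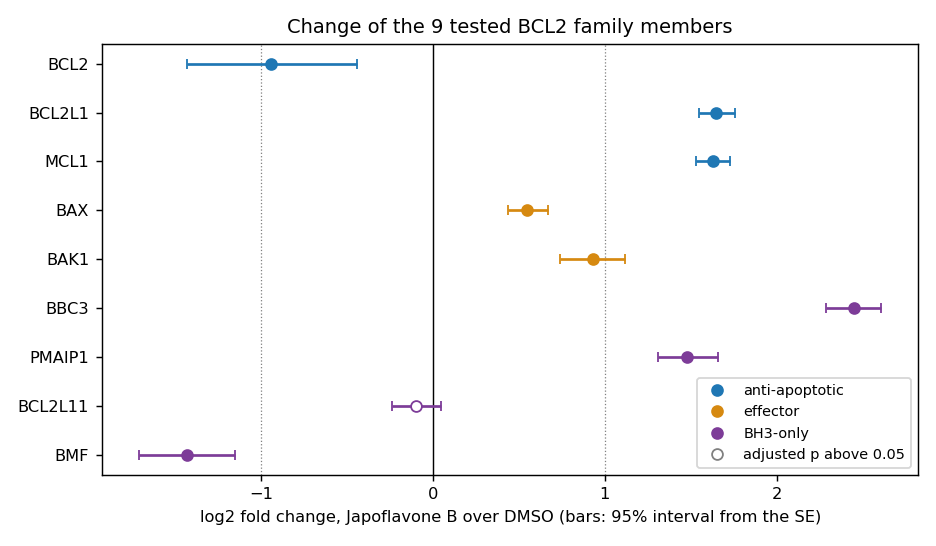
Log2 fold change of the 9 tested members, Japoflavone B over DMSO, with bars for the 95% interval (normal, from the SE) and dotted lines at 2-fold. BBC3 lies highest at 2.45, MCL1 and BCL2L1 lie side by side at 1.63 and 1.65, and BMF lies lowest at -1.43; the open point is BCL2L11, whose bar crosses 0.

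The BH3-only genes went in different directions. BBC3 (ENSG00000105327, chromosome 19, 47220822 to 47232766, minus strand), the gene of PUMA, had 3.48, 3.52 and 3.59 FPKM after DMSO and 18.5, 17.9 and 17.4 after Japoflavone B. The spread within each group was small beside the step between them, and the fold change of 5.46 (log2 2.45 ± 0.08; edgeR adjusted p = 2.88e-20) exceeded that of 98.3% of genes tested. PMAIP1 (ENSG00000141682, chromosome 18, 59899996 to 59904305, plus strand), the gene of NOXA, which binds MCL1 in preference to BCL-XL, had 9.34, 7.13 and 8.16 FPKM after DMSO and 20.9, 20.6 and 22.6 after Japoflavone B. It was 2.8-fold higher (log2 1.48 ± 0.09; edgeR adjusted p = 1.95e-14), and its DMSO libraries were the more scattered, with a coefficient of variation of 13.5% against 5.21%.

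BMF (ENSG00000104081, chromosome 15, 40087890 to 40108892, minus strand), whose product is held at the actin cytoskeleton in attached cells, fell. It had 2.19, 2.11 and 2.38 FPKM after DMSO and 0.77, 0.83 and 0.72 after Japoflavone B, with no overlap, and was 2.69-fold lower (log2 -1.43 ± 0.14; edgeR adjusted p = 8.97e-10). Only 8.6% of genes tested had a fold change this low or lower.

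BCL2L11 (ENSG00000153094, chromosome 2, 111119378 to 111168445, plus strand), the gene of BIM, which binds all the anti-apoptotic proteins, was called neither higher nor lower. It had 5.83, 5.91 and 5.75 FPKM after DMSO and 5.39, 4.92 and 4.93 after Japoflavone B, a log2 change of -0.10 ± 0.07 (edgeR adjusted p = 0.246) with a 95% interval of -0.24 to 0.05. On the trimmed-mean (TMM) scale of the test it stood at 5.23, 5.24 and 5.22 log2 CPM after DMSO and 5.22, 5.10 and 5.09 after Japoflavone B, so that the highest treated library came level with the lowest DMSO library to 2 decimals. With library totals alone the median of all genes moved by -0.10 log2, and BCL2L11 was then called lower at -0.20 log2 (edgeR adjusted p = 0.0188). It was also called lower with limma on log2(FPKM + 1), log2(FPKM + 0.1) and log2(TPM + 1), at -0.17, -0.20 and -0.30 log2 (limma adjusted p = 0.0306, 0.0279 and 0.00352). The other 8 tested members kept their direction and call in every alternative in which they were tested.

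BIK (ENSG00000100290, chromosome 22, 43110750 to 43129712, plus strand), the gene of a BH3-only protein of the endoplasmic reticulum, was barely detected. Its counts were 5, 3 and 3 after DMSO and 7, 5 and 13 after Japoflavone B. Per library total the ratio was 2.44 with an exact 95% binomial interval of 1.16 to 5.48, which covers counting error only. With no count filter the edgeR test gave an adjusted p of 0.143.

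**Figure D3:**
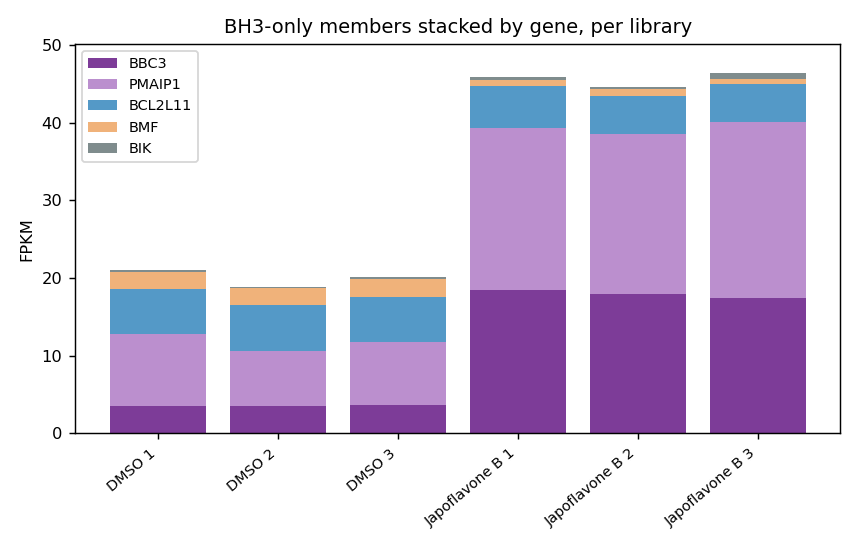
FPKM of the 5 BH3-only members stacked by gene in each library. The stack rises from 18.8 to 21.1 FPKM after DMSO to 44.6 to 46.4 after Japoflavone B, with the BBC3 and PMAIP1 parts growing, the BCL2L11 part nearly level and the BMF part shrinking.

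The make-up of the BH3-only transcripts therefore differed between the groups. BBC3 held 17.7% ± 1.11 of their summed FPKM after DMSO and 39.3% ± 1.62 in treated cells (SD, n = 3), and PMAIP1 held 40.9% ± 3.21 and 46.8% ± 1.75. BCL2L11 went from 29.2% ± 1.95 to 11.1% ± 0.571 and BMF from 11.1% ± 0.733 to 1.7% ± 0.155. BIK stayed near 1%, at 1.01% ± 0.197 and 1.05% ± 0.475.

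Because FPKM are per length, members of a role were also summed, as a description without a test. The anti-apoptotic sum was 71.6, 69.1 and 69.3 FPKM after DMSO and 201, 205 and 201 after Japoflavone B, a ratio of 2.89. The BH3-only sum had a ratio of 2.28 and the effector sum, with 42.9 to 48.3 FPKM after DMSO and 63.2 to 69.3 after Japoflavone B, a ratio of 1.43. The anti-apoptotic share of all 10 members was 51.4% ± 1.27 and 64.4% ± 0.251, the effector share 34.0% ± 2.06 and 21.1% ± 0.687, and the BH3-only share 14.7% ± 0.873 and 14.5% ± 0.492 (SD, n = 3). The rise in the first share thus came with a lower effector share. The BH3-only share differed by less than its spread at the deposited exonic lengths; with the longest coding transcript of GENCODE 29 as length, chosen after seeing the data, it was 11.7% after DMSO and 12.6% after Japoflavone B, the opposite direction.

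**Figure D4:**
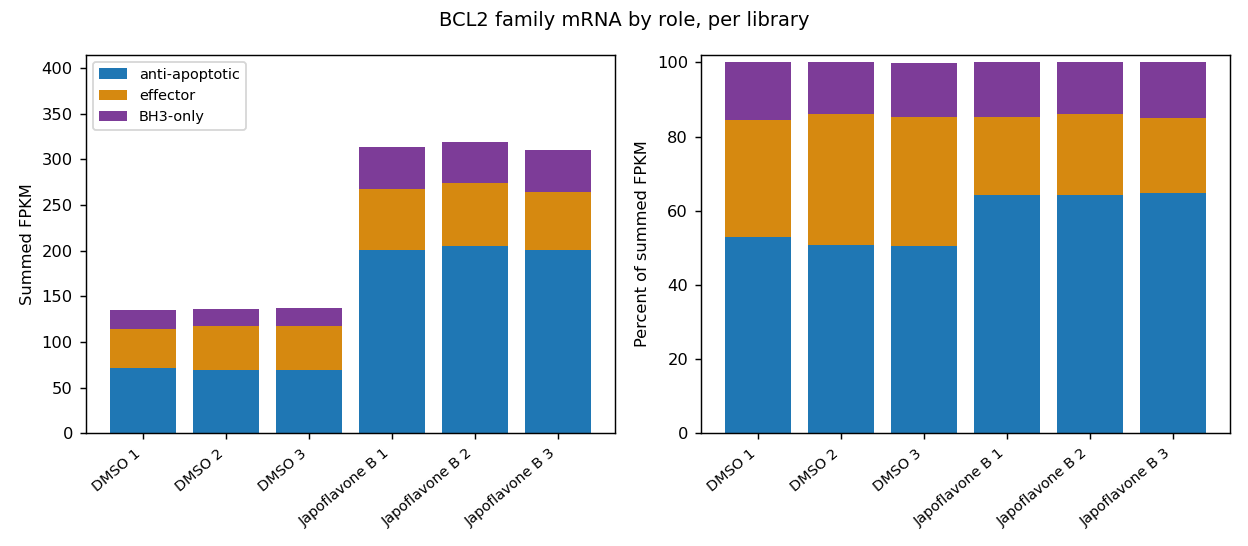
Summed FPKM of the anti-apoptotic, effector and BH3-only members in each library (left) and the same as percent of the sum over all 10 (right). The total goes from 135.5 to 137.2 FPKM after DMSO to between 310.5 and 318.9 after Japoflavone B, and the anti-apoptotic part is above 64% in each treated library.

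Ratios between single genes depended on the partner chosen. The MCL1 to PMAIP1 ratio of FPKM was 4.81, 5.86 and 4.98 after DMSO and 5.82, 6.00 and 5.41 after Japoflavone B, with overlap between groups. The BCL2L1 to BBC3 ratio went from 7.55, 7.66 and 7.92 to 4.30, 4.53 and 4.49, and MCL1 to BBC3 from 12.9, 11.9 and 11.3 to 6.56, 6.89 and 7.05, both lower in all treated libraries. The BCL2L1 to BAX ratio went the other way, from 0.695 ± 0.0267 to 1.49 ± 0.0394, so that BCL2L1 was below BAX in each DMSO library and above it in each treated one. Summed by role, the anti-apoptotic to BH3-only ratio was 3.51 ± 0.146 and 4.43 ± 0.141, and BH3-only to effector 0.434 ± 0.0527 and 0.691 ± 0.0454 (SD, n = 3).

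The order of FPKM levels differed between the groups near the top, in the middle and at the bottom of the family, while MCL1, PMAIP1 and BMF held the same rank in both. After DMSO it ran MCL1, BAX, BCL2L1, PMAIP1, BAK1, BCL2L11, BBC3, BMF, BCL2, BIK, with overlapping ranges between MCL1 and BAX, PMAIP1 and BAK1, and BCL2 and BIK. After Japoflavone B it ran MCL1, BCL2L1, BAX, PMAIP1, BBC3, BAK1, BCL2L11, BMF, BIK, BCL2, with overlap only between BMF and BIK. BBC3 thus moved from below BCL2L11 to above BAK1. Splice forms were not resolved by these gene counts: GENCODE 29 lists 9 protein-coding transcripts for BCL2L1, 3 for MCL1 and 17 for BCL2L11, and the short forms of BCL2L1 and MCL1 are known to promote death.

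Overlapping genes bear mainly on BCL2L11 and BCL2L1, since the strand setting of the counting is not given in the sources used here. MIR4435-2HG, on the opposite strand across BCL2L11, had 2140 counts after DMSO and 1689 after Japoflavone B beside 2249 and 1831 for BCL2L11, and GENCODE 29 gives them 727 shared exon bases. ABALON, opposite to BCL2L1, shares 1424 exon bases with it and had 11 and 26 counts beside 6585 and 18027. A low count of a neighbour does not show how reads in shared bases were assigned. The other annotated genes overlapping members had at most 11 counts in a group, apart from ADAMTSL4 beside MCL1 (188 and 240) and ACOXL beside BCL2L11 (42 and 23), which share 0 exon bases with them in GENCODE 29. Among these other genes BMF-AS1 shares the most, 461 exon bases with BMF, and had 0 counts in both groups.

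Genes were compared by the distance between centred log2 CPM values (counts scaled to library size) over the 6 libraries. Candidates were the 11775 tested genes that reached 1 FPKM in either group and had a symbol other than a clone name. Among them the nearest gene to BBC3 was MDM2 and the nearest to BCL2L1 was ATF4. MDM2, a ubiquitin ligase gene, was at a distance of 0.10 with a log2 change of 2.47 ± 0.05, and ATF4, the transcription factor of the integrated stress response, at 0.03 with 1.64 ± 0.05. For MCL1 they were TMEM167B and TTC13 (0.05 and 0.06), for PMAIP1 RAB33B and MARVELD2 (0.15 and 0.16), for BAX RPL4 and ZNF749 (0.05 and 0.06), and for BAK1 ACAA1 and RFNG (0.06 and 0.10). BMF lay nearest to EFEMP1 and BPHL (0.11 and 0.12), BCL2L11 to PSME3IP1 and PYGL (both 0.04), and BCL2, whose counts are low, to SLC44A3 and FRAS1 (0.39 and 0.42). The second nearest were MT-RNR1 for BBC3 (0.14) and CCNB1IP1 for BCL2L1 (0.04). With 6 libraries in 2 groups these distances mostly reflect the size of the group difference.

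Of 14 further family genes, 7 of 11 tested were higher and 2 lower, with a median log2 change of 0.36, beside 34.7% higher, 35.4% lower and a median of 0.0 over all genes tested. With limma on log2(TPM + 1), 5 were higher and 2 lower, with a median of 0.14, beside 24.0% and 44.6% of genes tested. The anti-apoptotic BCL2A1 was 3.23-fold higher (from 1.29 ± 0.159 to 3.88 ± 0.42 FPKM; log2 1.69 ± 0.25; edgeR adjusted p = 9.71e-07) and BCL2L2, the gene of BCL-w, 1.4-fold higher. BNIP3 and BNIP3L, mitophagy receptors induced by hypoxia, were 2.63-fold and 1.46-fold higher, BCL2L13 1.64-fold, the BH3-only gene BAD 1.29-fold and the BAX-like BOK 1.27-fold. The BH3-only gene BID, which links death receptors to mitochondria, was 1.38-fold lower (log2 -0.46 ± 0.08; edgeR adjusted p = 1.95e-05). BCL2L15, with 73 counts over the 6 libraries, stood at -2.94 ± 0.61 log2 (edgeR adjusted p = 0.00012). BCL2L12 and BECN1 had log2 changes of 0.04 and 0.11 and did not pass, and HRK, BCL2L10 and BCL2L14 had too few counts to test.

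Downstream of the family, 4 of 14 genes of the mitochondrial apoptosis machinery were higher and 7 lower, with a median log2 change of -0.19, and 4 of 14 is near the 34.7% of all genes tested that were higher, where 35.4% were lower. With limma on log2(TPM + 1), 3 were higher and 9 lower, beside 24.0% and 44.6% of genes tested. The porin genes were divided: VDAC2, whose product binds BAK and BAX at the membrane, was 1.91-fold higher and VDAC1 1.51-fold higher, whereas VDAC3 was 2.03-fold lower. APAF1, the scaffold of the apoptosome, was 1.77-fold lower and AIFM1, a flavoprotein of the mitochondrial intermembrane space, 1.93-fold lower (from 8.13 ± 0.325 to 3.93 ± 0.157 FPKM). CYCS, the cytochrome c gene, had 41.2 ± 1.05 and 41.3 ± 1.28 FPKM and did not pass (log2 0.10 ± 0.05; edgeR adjusted p = 0.0731).

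Of 10 genes for proteins that bind or degrade family proteins, 3 were higher and 5 lower, with a median log2 change of -0.17. Over all genes tested 34.7% were higher and 35.4% lower, together 70.0%, so that 8 of 10 called is near the background. FBXW7, a ubiquitin ligase subunit with MCL1 among its substrates, was 2.21-fold higher, and TPT1, which binds MCL1, 1.38-fold higher. DYNLL1, the dynein light chain to which BIM binds, fell from 68.4 ± 4.77 to 28.9 ± 1.91 FPKM (2.21-fold lower; edgeR adjusted p = 2.00e-15). YWHAQ, a 14-3-3 protein gene, and the chaperone gene HSPA8 were 1.76-fold and 1.43-fold lower. The counts for YWHAQ, TPT1 and HSPA8 may include reads shared with pseudogenes, which were not resolved.

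Of 12 transcription factors known to act on family genes, 11 were tested, of which 7 were higher and 3 lower, with a median log2 change of 0.40, beside 34.7% higher and 35.4% lower among all genes tested. DDIT3, the gene of CHOP, rose from 3.73 ± 0.713 to 25.2 ± 0.827 FPKM (7.21-fold higher; edgeR adjusted p = 3.35e-18). ATF4 and JUN, a subunit of AP-1, were 3.12-fold and 3.23-fold higher, and MYC 1.76-fold. RELA, a subunit of NF-kappaB, was 1.51-fold higher (edgeR adjusted p = 1.04e-09). NFKB1, the gene of another subunit, was 1.28-fold lower (log2 -0.35 ± 0.07, edgeR adjusted p = 0.00014). The other 2 of the 3 lower genes were FOXO4 and E2F1, at 1.55-fold and 1.32-fold lower.

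**Figure D5:**
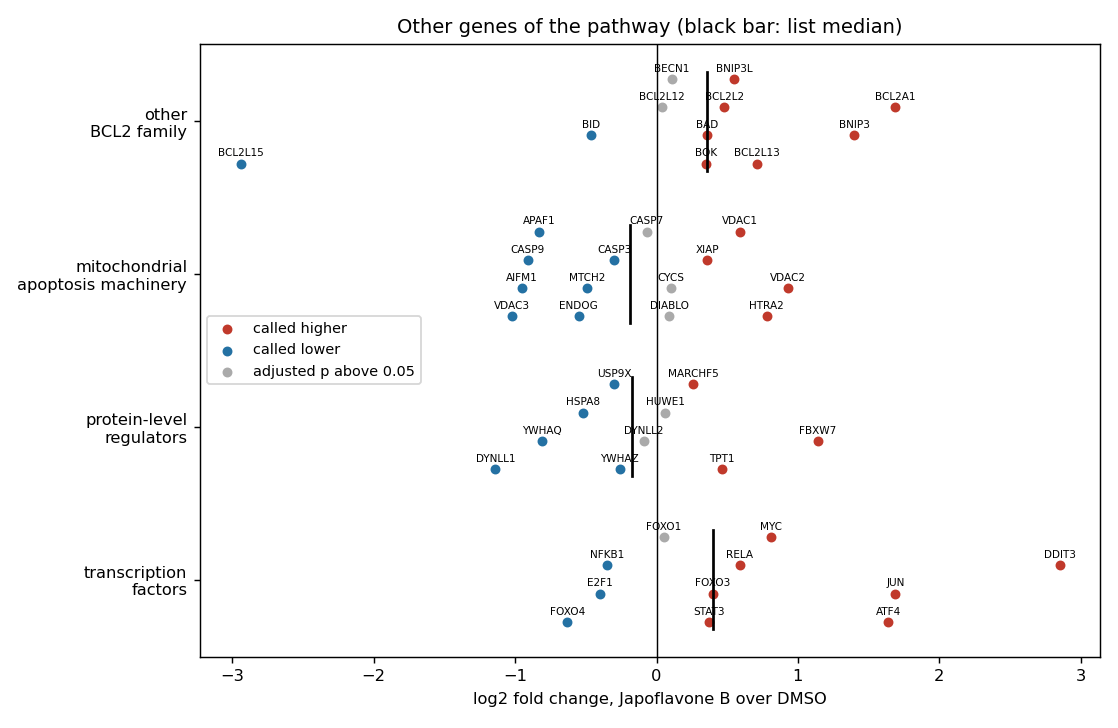
Log2 fold change, Japoflavone B over DMSO, of each tested gene in the 4 lists around the family, coloured by call, with the list median as a black bar. Medians lie at 0.36, -0.19, -0.17 and 0.40 from top to bottom, and each list holds genes called in both directions.

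Libraries held 15298531 to 21744407 gene counts, and log2 CPM of libraries correlated at 0.990 to 0.992 within groups and 0.926 to 0.931 between them. Mitochondrially encoded genes took 3.97% to 4.7% of counts after DMSO and 8.33% to 8.58% after Japoflavone B; with those genes left out, the members called were again 6 higher and 2 lower, beside 34.8% and 35.4% of genes tested. A549 markers were present, with ALDH1A1 at 2973 ± 82.4 and 626 ± 8.51 FPKM, although EPCAM stayed under 1 FPKM in both groups on average. The 7 markers summed to 5167 to 5458 FPKM after DMSO and 1445 to 1495 after Japoflavone B. Most of that sum was ALDH1A1 and AKR1B10, the latter at 1589 ± 29.4 and 622 ± 21.9 FPKM. Of the 7, 6 were called lower, beside 35.4% of genes tested. Of markers of other cells, the immune list summed to at most 3.02 FPKM, nearly all CD14, with PTPRC and CD3E listed at 0 FPKM. CD14 went from 2.53 ± 0.475 FPKM after DMSO to 0.313 ± 0.142 after Japoflavone B, 7.6-fold lower (edgeR adjusted p = 6.32e-09). The fibroblast list summed to at most 5.06 FPKM, nearly all COL1A1, and the endothelial list to at most 0.07. The part of the mitochondrial share and of the falling A549 markers in the members' changes was not tested further. Taken singly, each of the 9 tested members gave an exact permutation p of 0.1 (two-sided, on log2 CPM), the lowest that can be reached with 3 libraries a group.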

How the data were processed

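Poly(A) RNA was selected with oligo(dT) beads and primed at random, per the labels' protocols. Build GRCh38 and the tools HISAT2 2.0.1, HTSeq 0.6.1, cutadapt 1.9.1 and DESeq2 are listed, per the submitters' processing notes, with no role or order. The deposited table holds raw counts per gene, and FPKM columns which the authors scaled, per the file headers, by exonic size and which match recomputation from column totals within 0.005. Exonic gene sizes are in bases, another deposited column. Counts were kept by filterByExpr (minimum count 10, minimum total 15), scaled by trimmed mean of M-values and tested with edgeR 4.0.16 (quasi-likelihood, group only) in R 4.3.3; p-values were adjusted by Benjamini-Hochberg across every gene in the fit, and 0.05 was the threshold. The 95% intervals of fold changes are normal ones from the SE. The workflow was tested on simulated counts in which only a small part of the genes changed, equally up and down. That test cannot bear on the choice of scaling in these data, where 70.0% of genes tested were called. Alternatives used DESeq2 1.42.0, limma 3.58.1, other scalings, filters and units, the replicate number as a block, and each library left out. The members and lists were chosen with earlier results of these data known. Named were all members, all further family genes and the 2 nearest genes per member. Of each other list, the 5 genes with the lowest adjusted p that reached 1 FPKM were named. CYCS, NFKB1, FOXO4, E2F1 and the marker genes were added after their values were seen. Of the transcription factor list, 1 gene is not reported here.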

Additional observations from a re-analysis of the deposited data

How the results depend on the processing

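In all 18 alternatives 6 members were higher. In 13 of them 2 were lower, in 4 there were 3, BCL2L11 being added, and with a mean of at least 2 FPKM there were 0, since BCL2 and BMF were not tested there; for the same reason 1 further family gene was lower in place of 2. The share of all genes tested that were higher ran from 18.3% with no filter to 39.2% with a mean of at least 2 FPKM. The share that were lower ran from 19.2% with no filter to 44.6% with limma on log2(TPM + 1). On log2(FPKM + 1) the changes of low genes were smaller, as the pseudocount makes them, at -0.19 log2 for BCL2 and -0.86 for BMF. As TPM, the summed level rose 2.67-fold for anti-apoptotic and 2.11-fold for BH3-only members. With limma on log2(TPM + 1) the list medians were 0.14, -0.38, -0.38 and 0.18 log2 for the further family, the apoptosis machinery, the regulators and the transcription factors, of unchanged sign. With the longest coding transcript of GENCODE 29 as length, chosen after seeing the data, the effector share was 37.4% after DMSO and 22.9% after Japoflavone B, the BH3-only share 11.7% and 12.6%, and the BH3-only ratio 2.46. Same-numbered libraries showed no shared deviation (correlations across genes of 0.013, -0.004 and -0.045). Such correlations cannot tell whether they shared a culture or a day, which the labels do not state. With the replicate number as a block, 6 members were higher and 2 lower, beside 34.2% and 34.9% of genes tested. BBC3 then stood at 2.45 log2, and no member's call changed. Leaving out each library in turn moved BBC3 between 2.44 and 2.48 log2 and BCL2, the member with fewest counts among those tested, between -1.15 and -0.75 log2. Depth limits BIK and BCL2 most.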

Other observations

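With the longest coding transcript of GENCODE 29 as the length in place of the exonic size, BAX stood above MCL1 after DMSO, at 74.8 and 67.2 FPKM, with overlapping ranges, and BBC3 stood above PMAIP1 after Japoflavone B, at 31.1 and 24.0 FPKM, without overlap. The exonic sizes of the deposited table count every annotated exon, 12612 bases for BCL2 and 2587 for BAX, where those transcripts have 7461 and 1358. This choice changes levels between genes and leaves the change of each gene as it was.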
